A study of Artemia parthenogenetic lineage with 3 samples.

Results

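Among the 108316 merged peaks of accessible chromatin listed for *Artemia* cysts, 10923 (10.1%, exact 95% interval 9.91 to 10.3) were merged from 6 or more summits while being narrower than 1500 bp. These many-summit peaks were chosen by the number of summit positions deposited with each peak and by width, PeakEnd minus PeakStart plus 1, and by no read count. Another 703 peaks with 6 or more summits were 1500 bp or wider and were left out by the rule. The peaks used for comparison were the 59489 that list a single summit. The read counts came from cysts of parthenogenetic *Artemia*, labelled wild type, that were collected at Ebinur Lake. The cysts were freed from diapause by dehydration and cold, rehydrated, and sampled 30 min after embryonic diapause termination (EDT). The 3 libraries, all of the ArR_30min group, were made from nuclei of whole cysts, so cell types of the embryo were not separated. The study calls them biological replicates, its methods describe the cysts as drawn from a single batch, and the spread over n = 3 is that between these samples. No read counts of another group or time point are present, and every comparison below is between classes of peaks within the same libraries.

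ATAC-seq uses the Tn5 transposase, which inserts adapters into DNA that is not wrapped in nucleosomes or otherwise covered, so read density follows chromatin openness. Open stretches of this kind mark active promoters and enhancers, and in embryos that leave dormancy they show where transcription can resume. A peak caller reports for each open stretch a summit, the position of highest read density. When overlapping calls are merged, a peak keeps every summit of the calls it absorbed. Several summits can therefore lie at the same place, called again in other libraries, or at different places inside a longer open region. The positions show which summits lie together, but not which library or call gave each. The study describes peaks merged over all samples of its ArD_0h (diapause), ArR_30min and ArR_5h groups. The summits it reports for the ArR_30min libraries are, even added together, far fewer than the 269595 listed here. Most listed summits therefore came from other calls, which may be those of libraries that were not analysed here. The number of summits in a peak is thus not a property of these libraries alone. How many sets of calls were merged into the table is not given in the sources used here.

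Depth was sufficient for single peaks of this class. Totals recovered from the RPM (reads scaled to library size, deposited as count plus 1 over a library total) were 53022269, 56882821 and 82440231 reads in replicates 1, 2 and 3. A median many-summit peak held 135, 129 and 196 reads, against 25, 27 and 43 reads for a single-summit peak, and the weakest many-summit peak values were 20, 24 and 39 reads. Both mates of a pair were probably counted, so the numbers of read pairs are lower than these. Many-summit peaks covered 8.87 Mb, or 20.5% of the merged length, and held 29.9%, 28.9% and 28.5% of all reads in peaks. Of these peaks, 10915 (99.9%) exceeded the read density outside peaks in all 3 replicates by a Poisson test with Benjamini-Hochberg adjustment, where 90.2% of all merged peaks did so. With counts and background halved the shares were 99.8% and 80.4%. The reads of these libraries probably entered the peak calls, so this outcome is largely set in advance and is given as a description.

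Summits of many-summit peaks were mostly stacked in groups of 6 or fewer, and 8.05% of the groups were larger. The 10923 peaks listed 86920 summits, 32.2% of the 269595 in the table, with a median of 7 per peak (quartiles 6 and 9, highest 24). Neighbouring summits lay a median of 26 bp apart, 43.5% of them within 20 bp, and 15.2% lay more than 150 bp apart. When a gap above 150 bp was taken to start a new group, the peaks held 22509 groups. Groups of 5 numbered 3344, groups of exactly 6 numbered 4668 and groups of 7 numbered 924. The higher count at 6 than at 5 is set by the rule, since a peak with a single group enters the class only with 6 or more summits. Over all 108316 merged peaks the counts went down with size, from 7356 groups of 4 to 6886 of 5, 5218 of 6 and 1039 of 7. The step from 6 to 7 was thus present without the rule, and within the class it was sharper with a stricter gap. At 100 bp there were 4275 groups of 6 and 421 of 7, and at 50 bp there were 2828 of 6 and 26 of 7. Over whole peaks the fall was weaker, with 4231 peaks of 6 summits and 2106 of 7 in the table. It was not particular to 6 there, since 17119 peaks listed 2 summits and 9053 listed 3. At least 1 group of exactly 6 was present in 40.4% of the many-summit peaks, in 80 of the 100 strongest and in 46.7% of those below 2 RPM. Peaks made up of groups of 6 alone were 23.0% of the class, 36 of the 100 strongest and 37.6% of those below 2 RPM, so this layout was about as common in weak peaks as in the strongest.

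**Figure D1:**
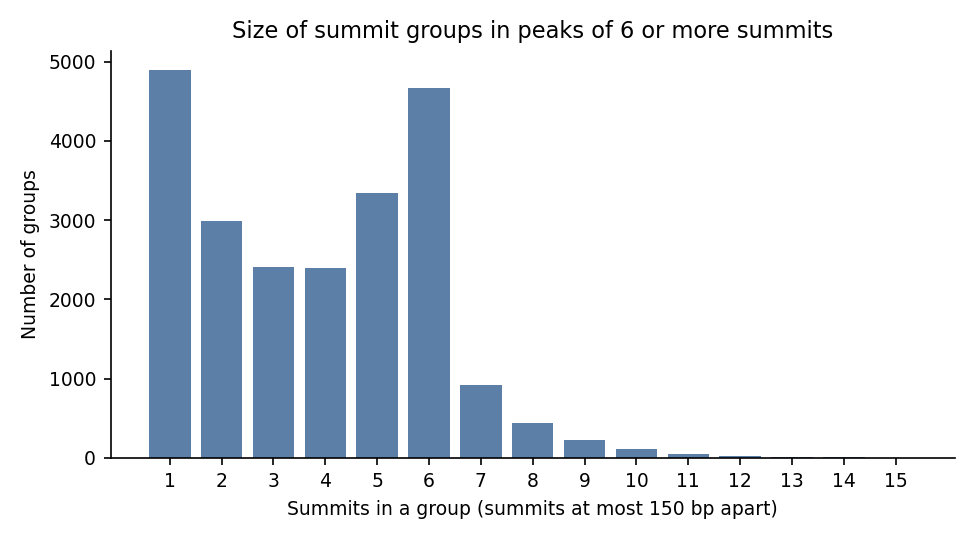
Number of summit groups (y axis) by the number of summits in a group (x axis) in the 10923 peaks of 6 or more summits, with summits at most 150 bp apart placed in the same group. The bar for 7 summits (924) is much lower than that for 6 (4668), while the rise from 5 to 6 follows from choosing peaks of 6 or more summits.

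In only part of this class did all summits lie at a single place. All summits formed 1 group in 3316 peaks (30.4%, exact 95% interval 29.5 to 31.2), 2 groups in 4535 (41.5%), 3 groups in 2277 (20.8%) and 4 or more in 795 (7.28%). The centres of neighbouring groups were a median of 316.5 bp apart (quartiles 258 and 394 bp, 11586 pairs), and 71.0% of the distances were between 200 and 400 bp. The commonest interval of 10 bp was 280 to 290 bp, with 519 pairs. Between groups that each held 5 or more summits, the median was 400.25 bp (quartiles 321.5 and 490 bp, 898 pairs). The spacing depends on the gap used, with medians of 260.5 bp at a gap of 100 bp and 365.5 bp at 200 bp, and no fixed repeat length can be read from it.

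**Figure D2:**
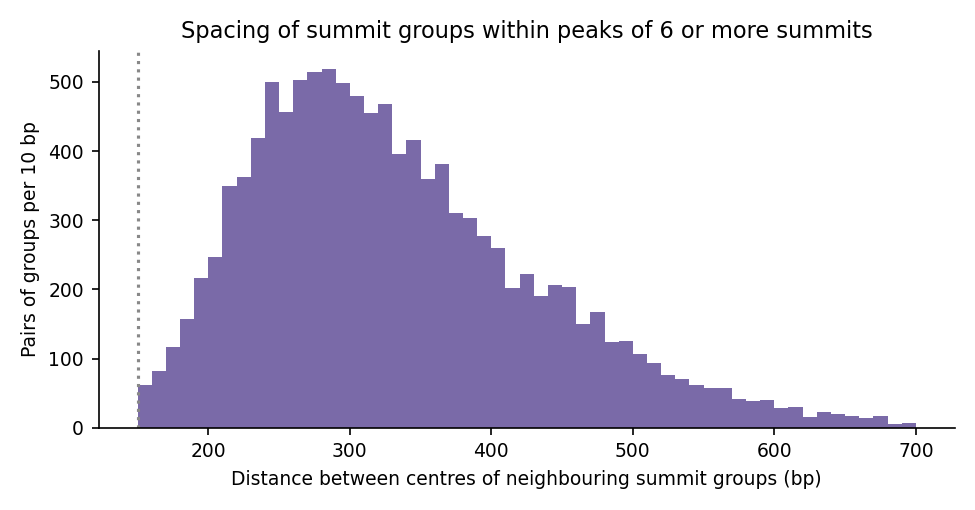
Number of pairs of neighbouring summit groups (y axis, per 10 bp) by the distance between their centres in bp (x axis) in peaks of 6 or more summits; distances above 700 bp are not drawn. The dotted line marks the gap of 150 bp that separates groups, and the counts are highest between 240 and 310 bp.

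The strongest members show the stacking most clearly. The peak at 1163653 to 1164839 of contig ctg479 (A. franciscana assembly ASM3288406v1, as for all positions here) had 204, 166 and 178 RPM in replicates 1, 2 and 3. Its 6 summits lay within 4 bp of each other, from 1164139 to 1164143, in a peak of 1187 bp, 60.5 kb upstream of the start of evm.TU.ctg479.19. The next, at 1153149 to 1153638 of ctg479, had 166, 132 and 140 RPM and 6 summits within 27 bp. It was narrow, at 490 bp, and had the highest density per length of the class, 298 RPM per kb.

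Of the other 6 strong peaks, 3 again listed a single group of 6 and 3 listed several groups. The peak at 359431 to 360489 of ctg421 had 165, 137 and 135 RPM, and its 12 summits fell into groups of 6 and 6 within 248 bp. The peak at 998986 to 999909 of ctg532 had 159, 127 and 150 RPM with 6 summits within 16 bp. A neighbour at 1007419 to 1008456 of ctg532 had 151, 121 and 133 RPM with 6 summits within 17 bp. These peaks were each strongest in replicate 1 and weakest in replicate 2 or 3. The peak at 1175981 to 1177186 of ctg479 had 160, 131 and 143 RPM, and its 11 summits fell into groups of 6 and 5. The peak at 39867 to 40527 of ctg2504 had 142, 117 and 127 RPM with 6 summits within 19 bp. The peak at 183009 to 183943 of ctg163 had 138, 116 and 122 RPM and 13 summits in groups of 6, 6 and 1. Of these 8 peaks 7 were distal intergenic, the last overlapped a listed gene, and together they held 3.38% ± 0.143 (SD, n = 3) of the reads in many-summit peaks. Replicate 1 gave the highest value at all 8, and 0 of them touched the start of the nearest gene.

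Summit positions were closer together in stronger peaks. Among the 2382 peaks with exactly 6 summits in 1 group, the distance from first to last summit had a median of 95 bp (quartiles 50 and 189 bp). It was 113 bp in the 1316 such peaks of 1 to 2 RPM, 83 bp in the 684 of 2 to 4 RPM, 49.5 bp in the 170 of 4 to 8 RPM and 27 bp in the 63 of 8 RPM or more. In the 149 peaks below 1 RPM the median was 86 bp, so the order did not hold at the lowest signal. Close stacking was not limited to the very strong peaks. At 226360 to 226767 of ctg262, 6 summits lay within 5 bp in a peak of 10.5, 10.4 and 8.73 RPM. At 195874 to 196253 of ctg1889, 6 summits also lay within 5 bp, with 3.55, 3.85 and 4.10 RPM, inside evm.TU.ctg1889.3 (154717 to 243774, minus strand).

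The peaks with the most summits held 3 or 4 groups, not all of 6 summits, and were of unequal strength. The peak at 62305 to 63692 of ctg155 listed 24 summits in 4 groups of 6, over 1066 bp, and had 52.8, 37.0 and 48.7 RPM. The peak at 19104 to 20517 of ctg1328 also listed 24, in groups of 12, 6 and 6, with 14.2, 12.2 and 12.01 RPM. The peak at 80768 to 82066 of ctg2672 listed 23, in groups of 6, 16 and 1, and had 11.1, 11.04 and 11.2 RPM, nearly the same level in each library. A peak of 22 summits at 106702 to 108132 of ctg2069, in groups of 6, 5 and 11, had 8.41, 8.60 and 7.62 RPM. Another of 22 at 1534003 to 1535392 of ctg110, in groups of 11, 6 and 5, had 6.83, 7.52 and 8.02 RPM. The summits spread widest in a peak at 554881 to 556367 of ctg1227, where 16 summits in 4 groups spanned 1339 bp at 5.38, 3.96 and 4.95 RPM. A peak over the start of evm.TU.ctg438.4 (541895 to 543391 of ctg438) spanned 1324 bp with 11 summits in 5 groups, at 6.68, 3.83 and 4.52 RPM. The peak at 1273835 to 1275307 of ctg110 spanned 1313 bp, also with 11 summits in 5 groups, at 4.43, 4.96 and 4.68 RPM.

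At like width, many-summit peaks held about 2 times the signal of single-summit peaks in every library. The comparison weighted single-summit peaks to the widths of the many-summit peaks in strata of 50 bp that held at least 5 single-summit peaks, which kept 6278 (57.5%) of the many-summit peaks. Their medians were 2.04, 1.88 and 1.94 RPM in replicates 1, 2 and 3, against 0.849, 0.897 and 0.946 RPM for single-summit peaks of like width. The groups overlapped little. In each library 97.2% to 98.1% of the many-summit peaks lay above the median of the single-summit peaks, and 87.1% to 94.7% of the single-summit peaks lay below the lower quartile of the many-summit peaks. On the log2(RPM + 0.0691) scale the difference was 1.20, 1.01 and 0.99, with a mean of 1.07 ± 0.12 (SD, n = 3), more than the replicates varied. An exact sign-flip permutation test (two-sided) returned p = 0.25, the smallest that 3 samples allow. Some strata held few single-summit peaks, and in those with at least 20 the difference was 1.02 ± 0.07. The reads of these libraries probably entered the summit calls, so this direction may be in part built into the rule, and it is given as a description.

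**Figure D3:**
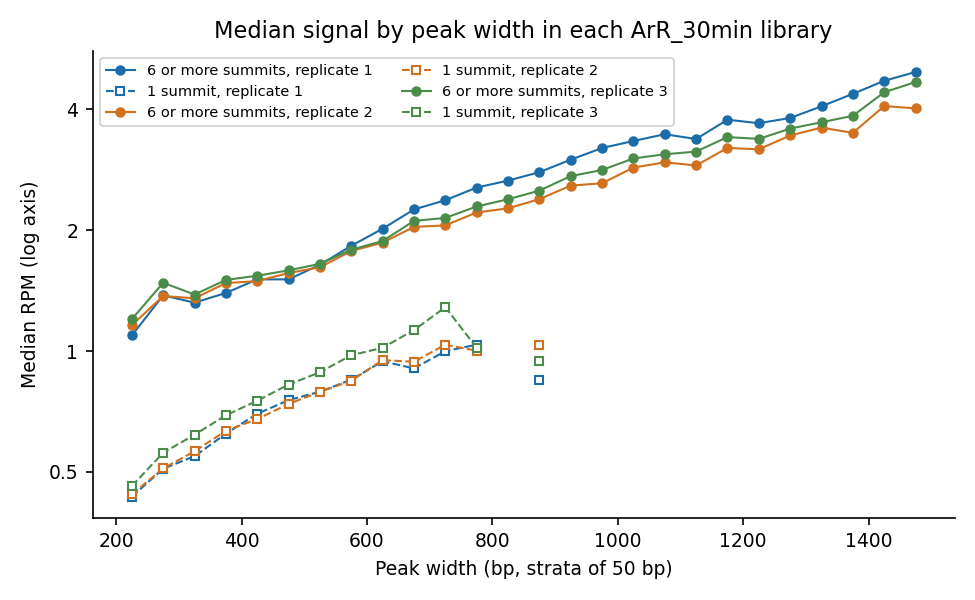
Median RPM (y axis, log scale) by peak width in bp (x axis, strata of 50 bp) for peaks of 6 or more summits (filled circles) and peaks of 1 summit (open squares), each colour a replicate. Squares are drawn where a stratum held at least 5 single-summit peaks, and in each of those strata all 3 filled circles lie above all 3 squares.

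Wide many-summit peaks had few or no single-summit counterparts, since the widest single-summit peak measured 1038 bp. Of the 4645 peaks left out above, 4157 could be set against peaks of 2 to 5 summits of like width. Their medians were 3.26, 2.78 and 2.95 RPM, against 1.98, 1.76 and 1.94 RPM. The difference was 0.64 ± 0.06 on the log2 scale (SD, n = 3; two-sided exact sign-flip permutation p = 0.25, the smallest possible). Its direction, too, may be in part built into the rule.

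Within a narrow range of widths the mean signal was higher with more summits, but the place of the peaks did not follow the same course. Among peaks of 500 to below 700 bp, the median RPM was 0.873 ± 0.0635 for 1 summit, 1.17 ± 0.0430 for 3, 1.65 ± 0.144 for 5, 1.81 ± 0.0658 for 6, 2.01 ± 0.0560 for 8 and 2.47 ± 0.0290 for 10 or more (SD, n = 3). Widths were not fully equal within this range, with medians of 547 bp for 1 summit, 604 bp for 6 and 638 bp for 10 or more. The share of peaks that overlapped a gene start was 1.54% (exact 95% interval 0.823 to 2.62) for 1 summit and 9.75% (8.52 to 11.1) for 5. Beyond 5 summits it was lower, with 8.02% (6.70 to 9.52) for 6, 6.02% (3.61 to 9.35) for 8 and 2.44% (0.506 to 6.96) for 10 or more, or 3 of 123 peaks. The log2 ratio of replicate 1 to the other replicates took a like course, from -0.08 for 1 summit to 0.22 for 5, 0.07 for 6 and -0.01 for 10 or more. Peaks with exactly 5 summits thus had both the highest share at gene starts and the strongest tilt to replicate 1 of the summit numbers shown. These values describe the peaks and were not tested.

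**Figure D4:**
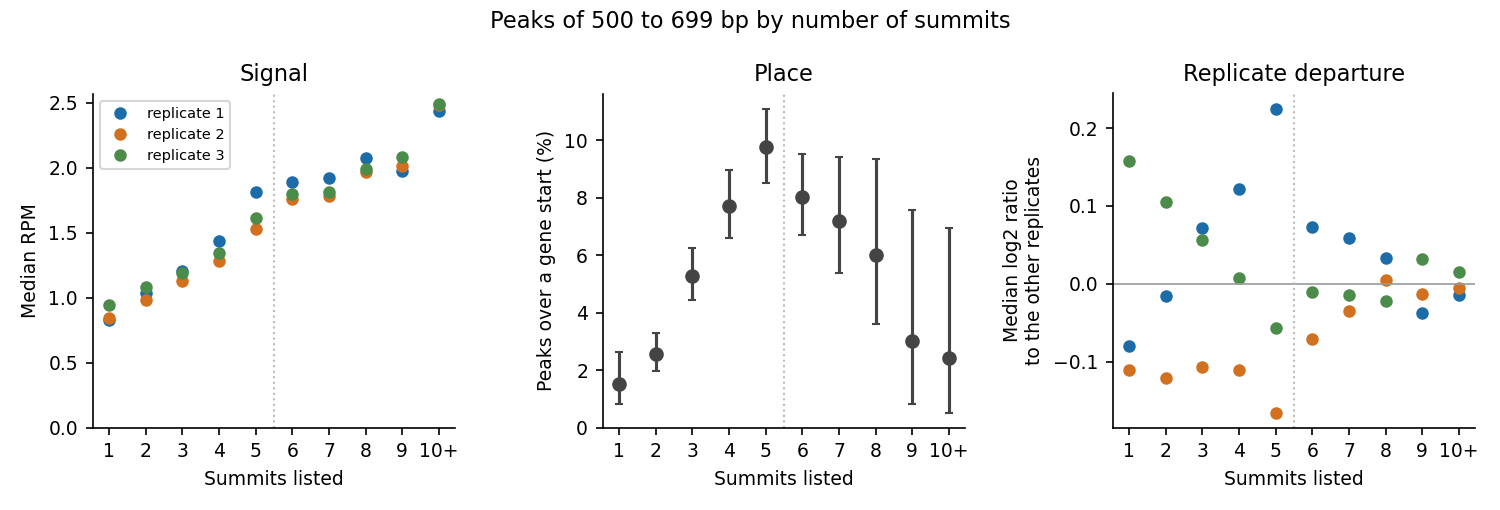
Peaks of 500 to below 700 bp by the number of summits listed (x axes). The panels plot the median RPM of each replicate (left), the share of peaks over a gene start in percent with exact 95% binomial intervals (middle) and the median log2 ratio of each replicate to the other replicates (right, same colours). The dotted line separates peaks of 6 or more summits. The mean over replicates rises at each step, from 0.873 to 2.47 RPM, though replicate 1 is lower at 9 summits (1.97 RPM) than at 8 (2.07 RPM), and the share at gene starts is highest at 5 summits.

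Peaks on either side of the thresholds were similar in density. The 5132 peaks of 5 summits had a median of 1.61 ± 0.133 RPM at a median width of 572 bp, and the 4229 of 6 summits had 1.86 ± 0.0655 RPM at 611 bp (SD, n = 3). Per kb of width these were 2.79 and 3.07 RPM. On the side of width, the 278 many-summit peaks of at least 1400 bp had 4.44 ± 0.415 RPM, and the 194 peaks left out by less than 100 bp of width had 4.76 ± 0.264 RPM.

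The many-summit peaks were spread over distal sequence, genes and gene starts. Distal intergenic peaks, beyond 3 kb of a gene start and outside listed genes, numbered 6082 (55.7%, exact 95% interval 54.7 to 56.6), near the 52.5% of all merged peaks and the 53.1% of single-summit peaks of like width. A further 3181 (29.1%, interval 28.3 to 30.0) overlapped a gene body, beside 39.0% of all merged peaks. Peaks within 3 kb of the start of the nearest gene numbered 1645 (15.1%, 14.4 to 15.7), beside 8.32% of all merged peaks. Of the 1645, 1170 overlapped the start itself. They were 10.7% (interval 10.1 to 11.3) of the class, beside 2.89% of all merged peaks. These 1170 were 37.4% of all 3126 merged peaks over a start. At like width, 7.57% of many-summit peaks and 2.97% of single-summit peaks overlapped a start, a difference of 4.60 percentage points, or 2.77 points in strata with at least 20 single-summit peaks. At like width and like signal, where 2235 many-summit peaks could be compared, the shares were 2.24% and 3.26%, so the difference turned round. Gene body peaks made up 31.5% of the many-summit and 38.2% of the single-summit peaks of like width. Shares count peaks, which are not replicates, and were not tested.

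Over gene starts, summits of many-summit peaks were placed mainly just upstream, with a second, lower rise inside the gene. The starts are those of the deposited gene models, and whether these include untranslated sequence is not given in the sources used here. Of the 9347 summits in the 1170 peaks, 5848 (62.6%) lay upstream of the start, and 2690 (28.8%) lay within the last 100 bp before it, against 789 (8.44%) in the first 100 bp of the gene. The bin from 50 to 100 bp upstream held 1553 summits and was the fullest. Farther upstream the count was 253 at 250 to 300 bp and slightly higher, 292, at 300 to 350 bp. Inside the gene the count fell to 285 summits at 50 to 100 bp and was higher again at 150 to 200 bp, with 415, and at 200 to 250 bp, with 389. This held for genes on the plus strand (135 and 182 summits at 50 to 100 and 150 to 200 bp) and on the minus strand (150 and 233). In the 1911 start peaks of 1 to 5 summits the counts went down over the same distances, from 376 to 188. The same was seen in the 584 of them with 2 to 5 summits and 600 bp or more of width, where the counts were 152 and 71. In 80.6% of the many-summit start peaks, summits lay on both sides of the start, and in 8.55% all summits formed 1 group. The shares were 32.9% and 69.9% in the 1911 start peaks of 1 to 5 summits. This contrast is in part set by the rule, since more summits make several groups and both sides more likely. The rise inside the gene may likewise follow in part from the rule, which favours start peaks with a further group of summits. The start peaks of 1 to 5 summits hold fewer groups and cannot decide this.

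**Figure D5:**
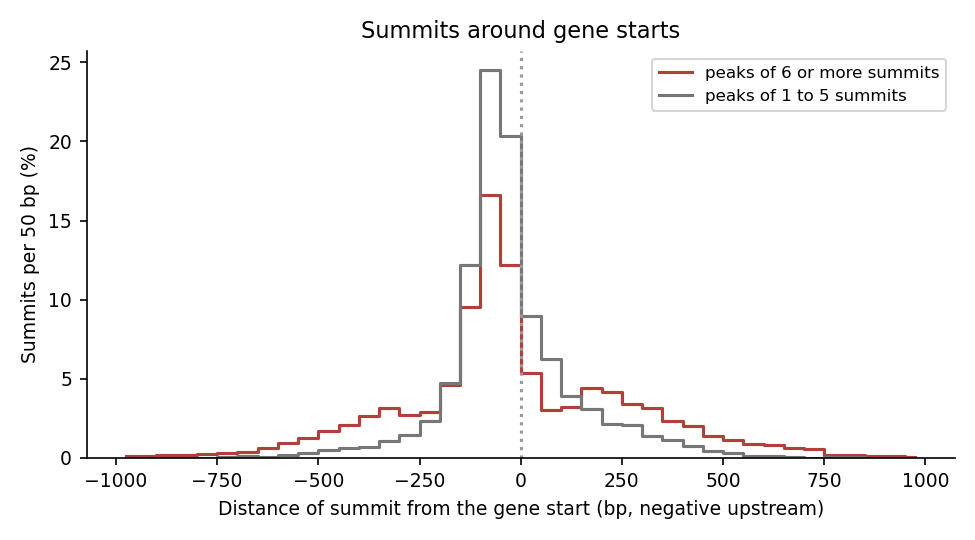
Share of summits in percent per 50 bp (y axis) by distance from the gene start in bp (x axis, negative upstream in the direction of the gene) for the 1170 peaks of 6 or more summits over a gene start and the 1911 peaks of 1 to 5 summits over a gene start that were below 1500 bp wide. Both curves are highest 50 to 100 bp upstream, and only the curve for 6 or more summits is higher at 150 to 200 bp inside the gene (4.44%) than at 50 to 100 bp (3.05%).

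The 5 strongest of the many-summit start peaks differed in where their summits lay. The peak over the start of evm.TU.ctg324.7 (542888 to 544120 of ctg324) had 19.5, 12.2 and 13.4 RPM, with a group of 5 summits from 67 to 141 bp upstream of the start and single summits 285 and 545 bp inside the gene. The peak of evm.TU.ctg664.10 (510364 to 511198 of ctg664) had 16.1, 9.99 and 11.6 RPM, with 6 summits from 27 to 150 bp upstream and 4 from 279 to 302 bp inside. The peak of evm.TU.ctg634.8 (875213 to 876432 of ctg634) had 15.2, 9.35 and 11.4 RPM, with 6 summits from 107 to 148 bp upstream and 3 from 301 to 542 bp inside. Each of these 3 had a group of 5 or 6 summits upstream of the start. The peak of evm.TU.ctg647.14 (1018972 to 1020441 of ctg647) had 16.9, 11.2 and 12.9 RPM with groups of 3, 6 and 6 summits, the last across the start and the others 515 bp or more inside the gene. The peak of evm.TU.ctg722.1 (21212 to 22420 of ctg722) had 14.6, 9.02 and 11.1 RPM with groups of 5, 5 and 5 summits, upstream, just inside the start and 437 to 544 bp inside. The supplement of the study annotates evm.TU.ctg647.14 as a transcription factor with sequence-specific DNA binding and evm.TU.ctg634.8 as a DNA-binding protein. All 5 peaks were highest in replicate 1 and lowest in replicate 2.

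Many-summit peaks over a start stood apart from distal ones mainly in replicate 1. At like width the medians were 3.56, 2.53 and 2.74 RPM over a start and 2.73, 2.50 and 2.58 RPM in distal intergenic peaks. The log2 differences were 0.37, 0.02 and 0.08, with a mean of 0.16 ± 0.19 (SD, n = 3; two-sided exact sign-flip permutation p = 0.25, the smallest possible), which is within the spread between replicates. Without replicate 1 the mean was 0.05. Set against the geometric mean of replicates 2 and 3, replicate 1 was higher at 94.5% of the start peaks, with a median log2 ratio of 0.46. The same share was 52.9% in distal intergenic many-summit peaks, with a median of 0.03. In the 350 single-summit peaks over a start it was 76.6%, with a median of 0.37, so the tilt at gene starts was not limited to many-summit peaks. What sets replicate 1 apart was not tested.

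Peaks with 1 stacked group and peaks with several groups had like signal once widths were equal, but not the same place. Without matching, the median RPM was 1.81 ± 0.0193 with 1 group, 2.42 ± 0.188 with 2, 2.96 ± 0.282 with 3 and 3.399 ± 0.290 with 4 or more (SD, n = 3), while median widths were 541, 785, 1024 and 1255 bp. Per kb of width the order was the opposite, at 3.32, 3.06, 2.91 and 2.79 RPM per kb. For 2761 peaks with 1 group and 7327 with more, weighted to like width, the medians were 1.89, 1.86 and 1.89 RPM against 1.94, 1.72 and 1.77 RPM. The log2 difference was 0.05 ± 0.08 (SD, n = 3; two-sided exact sign-flip permutation p = 0.5), within the spread between replicates, and its sign was negative in replicate 1 and positive in replicates 2 and 3. At these widths 3.59% of the peaks with 1 group overlapped a gene start, against 8.63% of those with more. This difference in place was not tested.

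The libraries ranked many-summit peaks alike. For replicates 1 with 2, 1 with 3, and 2 with 3, Pearson's r across these peaks (log2 scale) was 0.895, 0.922 and 0.949, and Spearman's coefficient was 0.869, 0.904 and 0.929. Across all merged peaks Pearson's r was 0.876, 0.893 and 0.901, not far below, and across single-summit peaks, with a narrower range of signal and fewer reads per peak, it was 0.603 to 0.634. These coefficients are across peaks, which are not independent, and describe these libraries. The coefficient of variation that edgeR estimated from the counts was 0.149 for many-summit peaks and 0.0920 without replicate 1. It was 0.146 for the 6278 many-summit peaks of the width comparison and 0.222 for the 59479 single-summit peaks in the same strata. The single-summit peaks were not weighted by width here, so these 2 values are not at like width. Median widths were 635 bp in the former and 245 bp over all single-summit peaks, which also held fewer reads. For many-summit peaks over gene starts the value fell from 0.199 to 0.0815 when replicate 1 was left out.

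Many-summit peaks were assigned to 5957 of the 12002 listed genes (49.6%), most of which had 1 (3551 genes), while 296 genes had 5 or more. The genes with the most were evm.TU.ctg1227.2 and evm.TU.ctg1737.1 with 22 each, evm.TU.ctg496.7 with 21, evm.TU.ctg49.7 with 19 and evm.TU.ctg2160.1 with 18. For evm.TU.ctg496.7 (565555 to 633331 of ctg496, plus strand) these were 56.8% of its 37 peaks, 12 of them overlapped a listed gene, they spread over 107 kb, and their median was 10.8 RPM. For the other 4 genes the share was 22.2% to 29.7% of their peaks, the spread 346 to 624 kb, and the median 2.40 to 4.73 RPM. None of the 5 genes had a many-summit peak over its start.

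Of the 11 receptor and signal transduction genes that the text of the study singles out, 6 had a many-summit peak, 15 peaks in all, or 8.47% of their 177 peaks, beside the 10.1% of all merged peaks that belong to this class. The study chose these genes partly on these samples. Frizzled-10 (evm.TU.ctg321.8) is a cell-surface receptor that binds Wnt proteins. Its start peak at 260129 to 261436 of ctg321 had 5.94, 4.24 and 4.31 RPM. The 10 summits formed groups of 2, 5 and 3, and the group of 5 lay 340 to 392 bp upstream of the start rather than next to it. Upstream of evm.TU.ctg485.29, annotated as adhesion GPCR E5 of the cell surface, a peak at 1282854 to 1283821 of ctg485 listed 13 summits and had 2.90, 3.25 and 3.08 RPM, lower than the peak of 9 summits at 1267043 to 1268159 with 5.88, 4.5005 and 4.42 RPM.

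The gene for the epidermal growth factor receptor, a receptor tyrosine kinase (evm.TU.ctg470.4), had 4 many-summit peaks, all upstream. The strongest, at 387769 to 388954 of ctg470, had 5.96, 4.22 and 4.73 RPM with 10 summits in 4 groups. The next, at 455981 to 456796 and 105 kb from the start, had 5.68, 3.46 and 4.14 RPM with 6 summits in groups of 1 and 5. The peaks at 466968 to 467504 and 382096 to 382632 were both 537 bp wide and listed 12 and 6 summits. Their values were 2.53, 2.53 and 2.21 RPM with 12 summits and 2.60, 1.76 and 2.29 RPM with 6, and these ranges overlap.

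Loco, a regulator of G-protein signalling (evm.TU.ctg756.7), had 2, the stronger at 586066 to 586769 of ctg756 with 3.39, 2.51 and 2.43 RPM. The gene evm.TU.ctg275.1, linked to proton transfer, had a peak at 79897 to 80548 of ctg275 with 3.38, 2.29 and 1.98 RPM and another at 256288 to 257021 with 2.72, 1.63 and 2.17 RPM, in both of which replicate 1 was highest. No many-summit peak was assigned to the RYamide receptor gene (evm.TU.ctg441.12), the opsin family gene (evm.TU.ctg179.30), evm.TU.ctg71.25, evm.TU.ctg470.6 or evm.TU.ctg658.6.

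The weakest many-summit peaks were narrow and still carried stacked summits. The peak at 1977870 to 1978093 of ctg45 was 224 bp wide and had 0.622, 0.598 and 0.485 RPM, from 32, 33 and 39 reads, with 6 summits within 15 bp. The peak at 1290136 to 1290359 of ctg491, also 224 bp wide, had 0.566, 0.809 and 0.497 RPM with 6 summits within 12 bp. The peak at 144334 to 144716 of ctg937 had 0.472, 0.967 and 0.643 RPM, and its 6 summits spread over 194 bp. All 3 lay in distal intergenic sequence. They exceeded background in all 3 replicates, as did 99.9% of the class, which is largely set by the peak calling.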

How the data were processed

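ATAC-seq was analysed in 3 libraries of the ArR_30min group. The authors trimmed reads with skewer, aligned them with BWA to the *A. franciscana* assembly ASM3288406v1, kept properly paired reads of sufficient mapping quality, removed duplicate and mitochondrial reads, and called peaks with MACS2, the aligner and caller that the submitters' processing notes list as well. The deposited table gives raw read counts per merged peak, summit positions, and the nearest gene. The deposited RPM values equal count plus 1 over a library total, to within 0.0005%. Since the cysts and the assembly are of different species, diverged regions may be missing. The table held 0 columns of samples outside the series. The mates of a pair were probably both counted. In all 3 libraries the totals lie very close to what counting both mates would give from the deduplicated reads that the study reports. If both mates were counted, the Poisson calls against background are too liberal and the coefficient of variation changes. With counts halved the latter was 0.129 for many-summit peaks, against 0.149. The exact intervals are binomial over numbers of peaks, which are not replicates, and cover no spread between libraries.

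Many-summit peaks and lists were chosen with earlier results of these data known. Signal was compared on the log2(RPM + 0.0691) scale, the pseudocount being 0.1 of the median, in width strata of 50 bp, with sign-flip tests over libraries. Promoters were taken as 3 kb around gene starts. Totals per library were 53022269 to 82440231 reads. Background was the read density outside peaks over 1583 Mb of contig length reached by listed peaks and genes. Coefficients of variation came from the common dispersion of edgeR 4.0.16 with TMM factors, with DESeq2 1.42.0 size factors as an alternative. Functions were tested on simulated data. Named peaks were the 8 strongest, the 5 with most summits, the 5 strongest over a start, the 3 weakest, the 3 with the closest and the 3 with the widest summits, and up to 12 of the study's genes. The 5 genes with most members were also named. Peaks of some of the study's genes are counted but not reported here.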

Additional observations from a re-analysis of the deposited data

How the results depend on the processing

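The signal difference between many-summit and single-summit peaks of like width kept its direction under each alternative run, with values of 0.74 (a pseudocount equal to the median) to 1.48 (10 or more summits), and 1.00 to 1.11 with 1 replicate left out. The alternatives with at least 20 single-summit peaks per stratum were chosen after seeing the data. The share over a gene start was 10.7% in the main run, 11.9% for 8 or more summits and 10.4% for 10 or more. Windows of 1 and 3 kb gave 12.4% and 15.1%. The difference in this share was 3.05 points in strata of 20 bp, 6.98 in strata of 100 bp, 2.77 in strata with at least 20 single-summit peaks and 3.21 for a window of 3 kb. At like width and like signal it was reversed, to -1.02 points, and to -1.28 with at least 20 single-summit peaks, and the log2 departure of replicate 1 against single-summit peaks was likewise reversed from 0.12 to -0.17. The cause was not tested. With another replicate left out this departure was 0.05 to 0.18. Peaks above background numbered 10915 to 10922 with 1 replicate left out (99.9% or more, beside 90.9% to 94.8% of all merged peaks). With a background density 2 times higher they numbered 10409 (95.3%, beside 51.6%). With counts and background halved they numbered 10900 (99.8%, beside 80.4%). The coefficient of variation was 0.0920 to 0.178 with 1 replicate left out. The share of peaks whose summits form 1 group was 12.3%, 20.05% and 42.7% for gaps of 50, 100 and 200 bp, and 5.44% for 10 or more summits. No paired analysis was possible because the 3 samples form a single group.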

Other observations

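Many-summit peaks took very different shares of the merged list at different strengths. They were 0.245% of the 75929 peaks below 1 RPM, 17.5% of the 21273 from 1 to 2 RPM, 60.2% of the 8342 from 2 to 4 RPM and 76.3% of the 2133 from 4 to 8 RPM. Above that the share was lower, at 58.7% of the 494 peaks from 8 to 16 RPM and 50.3% (exact 95% interval 41.9 to 58.7) of the 145 peaks of 16 RPM or more. Peaks of 1500 bp or wider are outside the class at every strength. The reads of these libraries probably entered the summit calls, so the rise with strength is in part set by the rule. Within the class the share over a gene start was 4.70% from 1 to 2 RPM, 14.3% from 2 to 4 RPM, 15.7% from 4 to 8 RPM and 6.90% from 8 to 16 RPM. It was 0 of the 73 peaks of 16 RPM or more. The approximate upper limit, 3 over the number of peaks, is a share of 4.11%, which is not an exact interval.

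The surroundings differed less. At like width the nearest other peak lay a median of 2807 bp from a many-summit peak and 4615 bp from a single-summit peak, and the nearest gene start 35.4 kb and 44.0 kb away. Another peak within 1 kb was found for 32.8% and 28.7%. Genes next to many-summit peaks had a median length of 46.5 kb, against 55.9 kb for single-summit peaks of any width. Several summits at the very same position were listed in 1257 many-summit peaks (11.5%). These values describe the merged list and were not tested.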
